A study of Arabidopsis thaliana with 12 samples.

Results

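The genes described here are those of the Arabidopsis plastid genome that serve plastid gene expression, together with a few others. These others are kept apart from the list of plastid photosynthesis and NDH genes by their symbols. Some of them still serve photosynthesis, such as the photosystem I assembly factors ycf3 and ycf4. Members were the probe sets which the platform annotation gives to a single plastid gene whose symbol starts with rpl, rps, rpo or ycf, or reads matK, clpP, accD, cemA or ccsA. This rule found 26 of the 22746 probe sets tested, each for a different gene and all with a value on every array. They comprised 7 large subunit ribosomal proteins (rpl14, rpl16, rpl20, rpl22, rpl32, rpl33 and rpl36) and 8 small subunit ribosomal proteins (rps2, rps3, rps4, rps14, rps15, rps16, rps18 and rps19). The other members were 4 RNA polymerase subunits (rpoA, rpoB, rpoC1 and rpoC2), ycf3, ycf4, and the 5 single genes matK, accD, cemA, clpP and ccsA. The rule leaves out genes of the inverted repeat, whose 8 probe sets carry 2 gene copies each.

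Plastid genes are read by a bacterial-type RNA polymerase whose core subunits are encoded in the plastid itself, and by a phage-type polymerase encoded in the nucleus. Genes for photosynthesis are served mainly by the plastid-encoded enzyme, while the rpoB gene cluster and accD are known for transcription by the nuclear-encoded one. The messages are translated on ribosomes of bacterial type that are built from plastid-encoded and imported nuclear-encoded proteins. Most plastid messages carry no stable poly(A) tail, and the ATH1 array was designed for RNA labelled from the 3′ end.

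The study asked how organs that emerge on the scion of a graft differ in expression from the same organs on its rootstock. Plants were wild type Col-0 aged 4 to 5 weeks, and the primary inflorescence stem of each was cut and wedge-grafted back onto the plant it came from (homograft). Side branches above and below the graft gave 4 groups of 3 arrays, taken from flower buds or leaves and from scion or rootstock. Buds were unopened, and both organs were collected between 10 and 20 days after grafting from the 3 grafts whose scions had grown best. All 4 groups therefore came from grafted plants, and an ungrafted control is not part of the comparison. The replicates were independent by the methods, which do not say how plants were assigned to them. The organ labels were checked on 5 floral organ identity genes named by tables of the study, with array medians from 1.53 to 2.02 in scion flower buds and 1.78 to 1.92 in rootstock flower buds. In leaves they lay between -2.69 and -1.53 for the scion and between -4.53 and -4.13 for the rootstock. Of these genes AP1, SEP1, SEP2 and SEP3 rose in buds of both stem parts, while SEP4 ran the other way, with -1.04 in the scion, where it was called, and -0.41 in the rootstock.

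Values are log2 signals set to a median of 0 for each probe set over the 12 arrays, so a negative value lies below that gene's own median. Differences between groups can be read from them, whereas a level, or a comparison of levels between genes, cannot. In bulk organs, fewer cells of a plastid-rich type and less plastid RNA per cell cannot be told apart.

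Array medians of the 26 genes differed within groups, and 1 array of the rootstock flower buds stood apart from its group. Over the members, the array medians were -0.16, -0.09 and -0.21 in scion flower buds, against -1.23, -1.21 and -0.18 in rootstock flower buds (replicates 1, 2 and 3). In leaves they were 0.72, 0.15 and 0.65 for the scion and 0.40, 0.08 and 0.63 for the rootstock. By its median, rootstock flower bud replicate 3 thus lay with the scion arrays. It was above replicates 1 and 2 in 26 of 26 members, whereas 38.6% of all probe sets showed that order. Its median distance above the mean of the other replicates was 0.87 for the members, 0.65 for 43 plastid photosynthesis and NDH genes and -0.00 for all probe sets. For 25 members (share of all probe sets not computed) it was nearer to the scion mean than to the mean of replicates 1 and 2. It was nevertheless above every scion bud array in ccsA, rpl16, rpl36, rpoB, rps3 and rpl32, at 0.65 and 0.72 in the last pair. In 9 members every scion bud array was above it (share of all probe sets not computed). The median SD of the members was 0.53 in rootstock flower buds, against 0.13 in scion flower buds, while over all probe sets it was 0.15 and 0.16 in the same groups. In leaves the members also spread more than all probe sets, with 0.45 against 0.27 in the scion and 0.38 against 0.25 in the rootstock. All 8 inverted repeat probe sets had rootstock flower bud replicate 3 above replicates 1 and 2 as well. One of the rps12 probe sets was at 0.09, -0.25 and -0.04 in scion flower buds, against -2.55, -1.75 and -0.11 in rootstock flower buds.

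**Figure D1:**
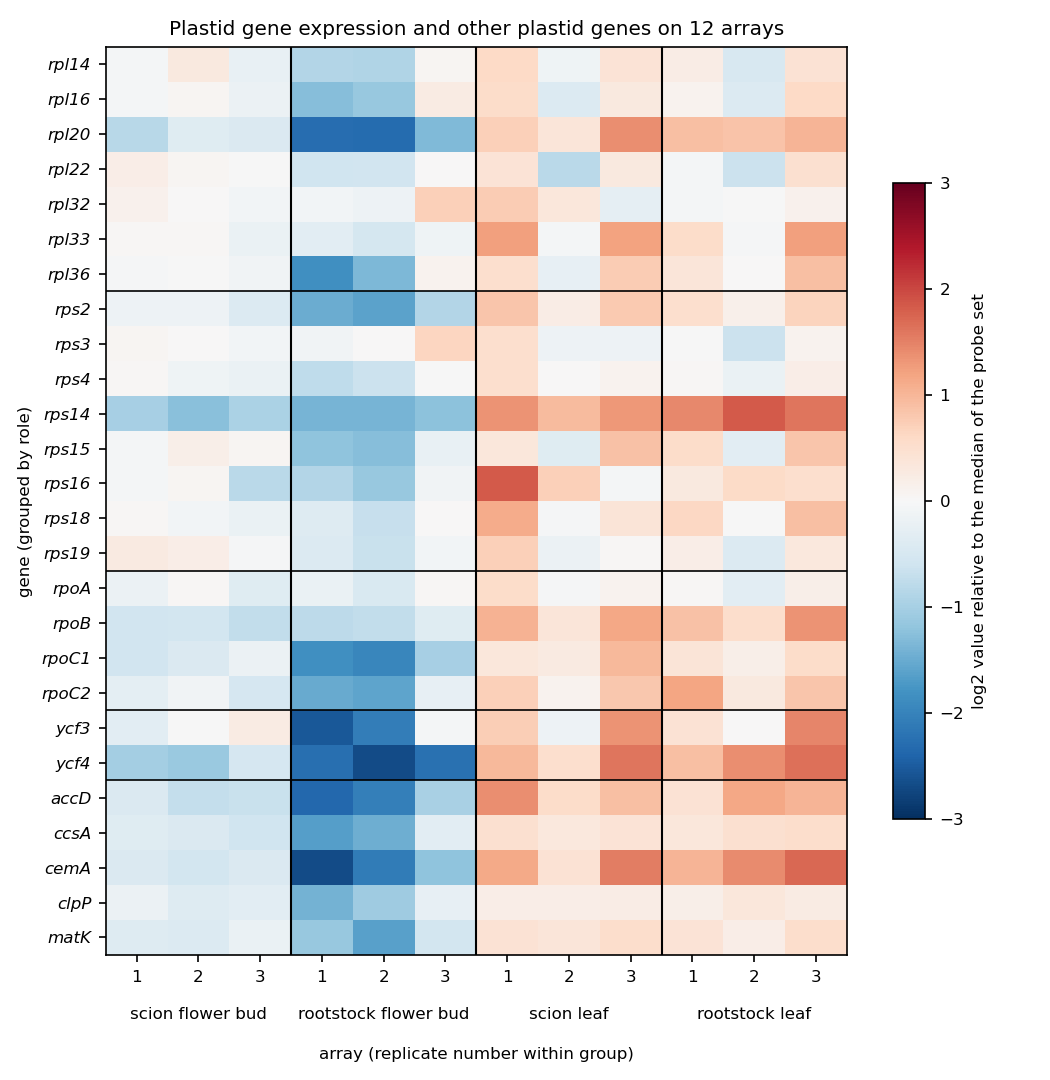
Log2 value of each of the 26 genes (rows, grouped by role) on each of the 12 arrays (columns, replicates 1 to 3 of each group), relative to the gene's median over the arrays. Rootstock flower bud replicates 1 and 2 form the darkest blue columns with medians of -1.23 and -1.21, and replicate 3 resembles the scion flower buds at -0.18.

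The first comparison asked whether these genes differed between scion and rootstock flower buds. Differences were positive for 24 of 26 genes (44% of all probe sets), with a median of 0.64 (median of all probe sets -0.04), and the values reached 1.52 for ycf3, ycf4 and cemA. With arrays centred on plastid photosynthesis and NDH genes only 11 were positive. None of the 26 passed the limma test at an adjusted p of 0.05 and a 2-fold change, whose calls took 0.237% of all probe sets as higher and 0.158% as lower in the scion. At an unadjusted p of at most 0.05 there were 12 members, against 11% of all probe sets. The methods' one-way test over the 4 groups called 6 (accD, cemA, rpl20, rpoC1, rps2 and ycf4) as higher, where it called 1.85% of all probe sets. Its p covers any difference among the 4 groups, organ differences included. Only the 2-fold limit of that call, which 7 members passed, concerns scion against rootstock buds. The 6 called genes also stand in the study's own list of differentially expressed genes, which was chosen on these samples and is no independent evidence. In 9 genes all scion arrays exceeded all rootstock arrays (accD, cemA, matK, rpl20, rpoC1, rps2, rps15, rps19 and ycf4), and 11.1% of all probe sets did so. No member had all scion arrays below all rootstock arrays, as 14.1% of all probe sets had.

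Among the assembly factors of photosystem I, ycf4 was at -1.02, -1.10 and -0.51 in scion flower buds, against -2.27, -2.67 and -2.24 in rootstock flower buds. Its groups were separate, with replicate 3 of the rootstock as low as replicate 1, and the difference of 1.52 ± 0.29 (SE) had the smallest adjusted p of the members at 0.0586. The other assembly factor, ycf3, had -0.33, -0.01 and 0.25 in scion flower buds, against -2.54, -2.07 and -0.05 in rootstock flower buds. Here replicate 3 of the rootstock lay inside the scion range, and the same difference of 1.52 carried an SE of 0.62 and an adjusted p of 0.384. The gene next to ycf4 in the plastid genome is cemA, which encodes a protein of the chloroplast envelope. For cemA the scion values of -0.43, -0.54 and -0.44 stood against -2.69, -2.09 and -1.20 in the rootstock. The groups did not overlap, and the difference was 1.52 ± 0.37 (SE; adjusted p = 0.116).

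Of the large subunit proteins, rpl20 had the smallest p, with -0.82, -0.37 and -0.43 in scion flower buds, against -2.28, -2.31 and -1.32 in rootstock flower buds. Every scion array was higher, by 1.43 ± 0.30 on average (SE; adjusted p = 0.08). Differences of the other large subunit genes ran from -0.14 for rpl32 to 0.97 for rpl36, all with overlapping groups. In the small subunit, rps2 was at -0.15, -0.15 and -0.40 in scion flower buds, against -1.49, -1.60 and -0.87 in rootstock flower buds. These groups were separate as well, and differed by 1.09 ± 0.23 (SE; adjusted p = 0.0828). The remaining small subunit genes lay between -0.19 for rps3 and 0.96 for rps15, and rps4, rps14, rps16 and rps18 were below 0.5.

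The polymerase subunits did not share one value. For rpoC1, which encodes the beta′ subunit, scion flower buds had -0.58, -0.44 and -0.19 and rootstock flower buds had -1.85, -1.96 and -1.005. All scion arrays were above all rootstock arrays, with a difference of 1.20 ± 0.27 (SE; adjusted p = 0.095). The beta subunit gene rpoB, its neighbour in the same cluster, was at -0.57, -0.54 and -0.75 in scion flower buds, against -0.79, -0.73 and -0.36 in rootstock flower buds. Those ranges overlapped and the difference was 0.00 ± 0.25 (SE; adjusted p = 0.999). The cluster also holds rpoC2, for the beta″ subunit, with 0.82 ± 0.36. In gene order rps2 lies beyond it, between rpoC2 and atpI. The alpha subunit gene rpoA, which lies in another part of the genome, differed by 0.04 ± 0.20. Whether rpoC1 and rpoB differ from each other was not tested.

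The single genes all had positive differences. That of accD, which encodes a subunit of the plastid acetyl-CoA carboxylase for fatty acid synthesis, was 1.18 ± 0.35, and matK, the maturase for group II introns, had 0.77 ± 0.23 (SE; adjusted p = 0.192 and 0.195). In both genes no rootstock array reached the scion range. The difference was 0.68 ± 0.28 for ccsA, needed for haem attachment to c-type cytochromes, and 0.62 ± 0.24 for clpP, the proteolytic subunit of the Clp protease (SE; adjusted p = 0.397 and 0.336). Rootstock flower bud replicate 3 was above the scion range in ccsA and within it in clpP.

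**Figure D2:**
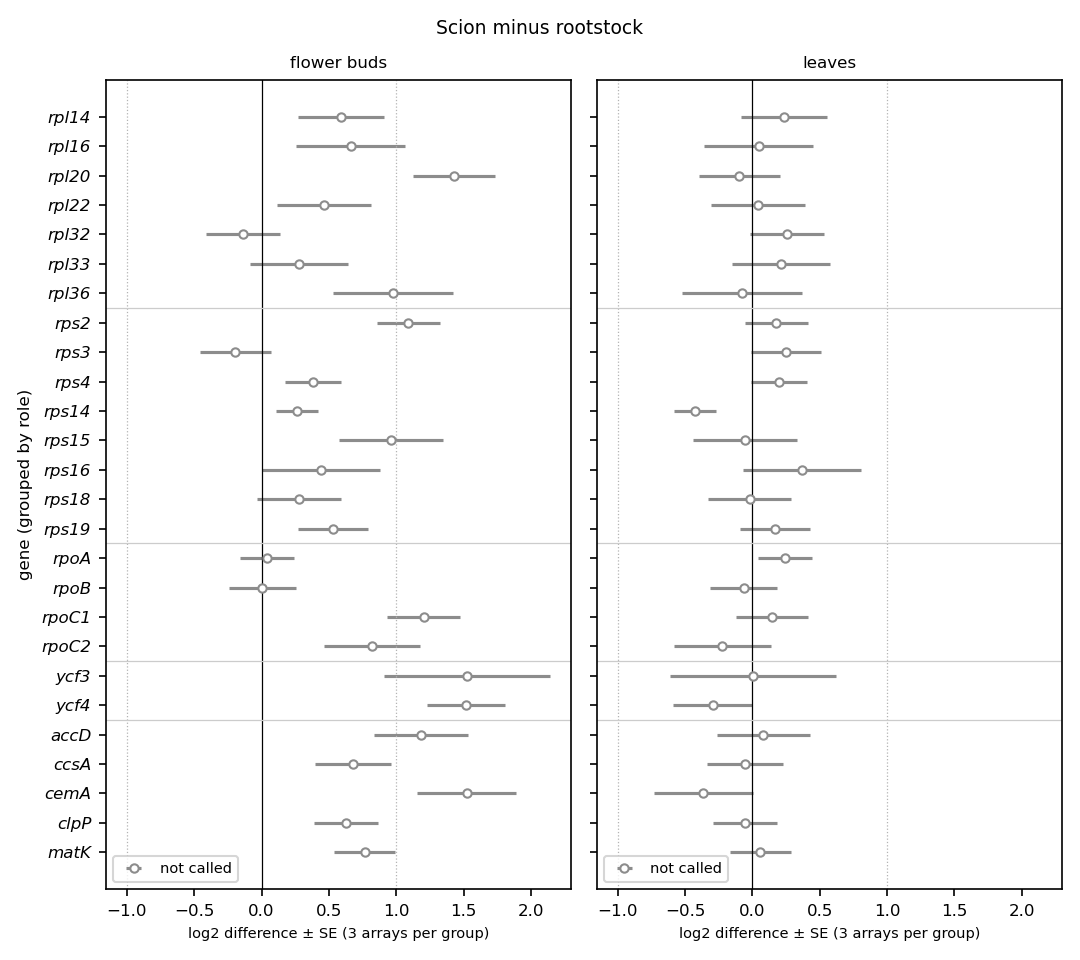
Scion minus rootstock log2 difference of each gene with its SE (horizontal bars) in flower buds (left) and leaves (right), 3 arrays per group, with dotted lines at 2-fold. Open symbols did not pass the test, which was all of them; in buds the points centre on 0.64, and in leaves on 0.04.

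The values depended on rootstock flower bud replicate 3. Without it all 26 differences were positive with a median of 1.00, and 5 genes (ccsA, matK, rpl20, rpoC1 and rps2) rose in scion flower buds, where 0.176% of all probe sets were called higher. Without replicate 1 or 2 of the rootstock the median was 0.43 or 0.48, and no member was called. A count also appeared when scion leaf replicate 2 (1 gene, ycf4, with 0.22% of all probe sets) or scion leaf replicate 3 (2 genes, rpl20 and ycf4, with 0.303%) was left out.

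Other measures were read on the same arrays, and the controls did not all follow the members. The control probe set of nuclear 25S ribosomal RNA, an RNA without a poly(A) tail, was at 0.02, 1.04 and 1.55 in scion flower buds, against -2.40, -1.04 and 0.52 in rootstock flower buds. It was thus highest in replicate 3 of both groups and lowest in rootstock replicate 1. The actin control gave a 3′ minus 5′ difference of 0.88, 0.42 and 0.33 in scion flower buds, against 0.31, -0.22 and -0.66 in rootstock flower buds. Here rootstock replicate 3 lay farthest from the scion, unlike in the members. The actin values did not overlap between the bud groups, whereas those of 25S ribosomal RNA and of the remaining controls did. For GAPDH the 3′ minus 5′ difference was 0.03, -0.18 and -0.14 in the scion, against -0.06, -0.12 and -0.23 in the rootstock. For ubiquitin it was 0.08, -0.18 and 0.02, against -0.17, 0.26 and 0.03. The 5S ribosomal RNA was at -0.18, -0.32 and -0.31, against -0.53, -0.15 and -0.17. The 43 plastid photosynthesis and NDH genes had a median difference of 0.73, with 38 positive and 2 that rose. The study's list, chosen on these samples, holds 14 of them. On arrays centred on the median of those genes, the members had a median of -0.06, and the median of all probe sets became -0.74. The part of RNA labelling, RNA quality and plastid content in the difference was not tested.

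Genes outside the plastid genome were read beside the members in buds. The 18 mitochondrial probe sets, also from an organelle genome, had a median difference of 0.09 and none was called. Of 33 listed nuclear genes for plastid ribosomal proteins 9 were annotated, with 9 negative differences between -0.44 and -0.10, and none was called. In 7 of them all scion bud arrays lay below all rootstock bud arrays, against 14.1% of all probe sets. The 5 annotated nuclear Clp subunits had a median of 0.00, a further Clp subunit named by tables of the study had 1.07 without a call, and the only annotated gene of the sigma factor and polymerase list had -0.16. As a measure of green tissue, the 5 annotated nuclear photosynthesis genes had array medians from -0.62 to -0.23 in scion flower buds and from -0.68 to -0.45 in rootstock flower buds, which overlapped. Tapetum and pollen coat genes mark a tissue of the anther. Of the annotated pair AT1G75920 rose by 1.57 in scion flower buds and AT5G07230 had -0.41 without a call. The 4 further genes of that list named by tables of the study, and thus chosen on these samples, all rose (GRP14, GRP17, GRP18 and EXL6, by 1.51 to 1.97), with array medians from 2.42 to 3.51 in scion flower buds, against 0.80 to 1.57 in rootstock flower buds. Among senescence genes NAC6, also named by those tables, rose by 4.04, and WRKY53 had -0.88 without a call. Levels of these markers cannot be read from centred values, and their part in the result was not tested.

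**Figure D3:**
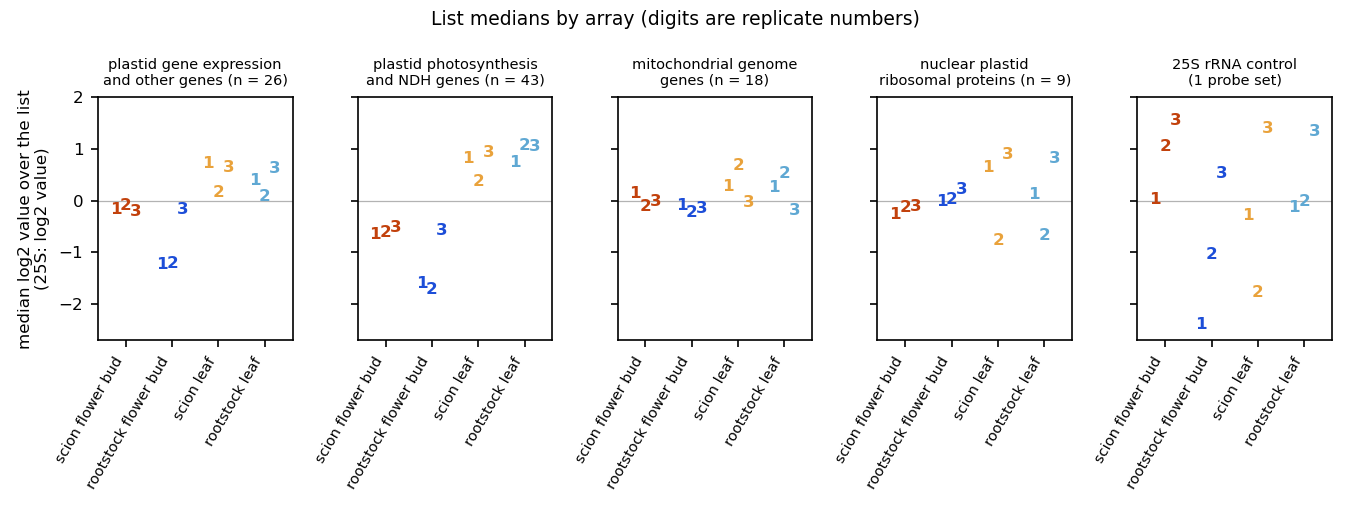
Median log2 value of each gene list on each array (digits are replicate numbers), and the value of the 25S rRNA control at the right. Rootstock flower bud replicates 1 and 2 are lowest for both plastid lists, while the mitochondrial list stays between -0.22 and 0.13 in flower buds.

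Leaves addressed the same question in the second organ, and the 26 genes were close to 0 there. Differences between scion and rootstock leaves ranged from -0.43 for rps14 to 0.37 for rps16, with 15 positive (47.8% of all probe sets) and a median of 0.04 (all probe sets -0.01). No member was called, where the limma test took 0.0264% of all probe sets in each direction, and 1 member against 7.15% of all probe sets had an unadjusted p of at most 0.05. The methods' one-way test called none either, with 0.668% of all probe sets higher and 0.637% lower. That single gene was rps14, with 1.36, 0.95 and 1.29 in scion leaves, against 1.44, 1.85 and 1.60 in rootstock leaves. Its groups did not overlap, as in 4.89% of all probe sets in that direction, and the difference was -0.43 ± 0.16 (SE; adjusted p = 0.563). No member was separate in the other direction, where 4.01% of all probe sets were.

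The other leaf values overlapped between the groups. For ycf4, scion leaves had 0.97, 0.51 and 1.61 and rootstock leaves 0.91, 1.40 and 1.66, a difference of -0.29 ± 0.29. For cemA the values were 1.13, 0.43 and 1.54 in scion leaves, against 1.02, 1.43 and 1.73 in rootstock leaves, a difference of -0.36 ± 0.37. In both genes scion leaf replicate 2 was the lowest of the leaf arrays. For rpl32 they were 0.76, 0.34 and -0.27 in scion leaves, against -0.06, -0.02 and 0.13 in rootstock leaves, a difference of 0.26 ± 0.27. For rpoA they were 0.54, -0.04 and 0.11 in scion leaves, against 0.04, -0.31 and 0.17 in rootstock leaves, a difference of 0.24 ± 0.20. Adjusted p of these 4 genes lay between 0.916 and 0.949. These leaf values come from the fit without pairing, and with the replicate block within each organ no member was called either, the smallest adjusted p being 0.313 for rps14.

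Leaf arrays varied together by replicate number. Replicate 2 was the lowest of its group in both leaf groups for 18 of 26 members, against 20.0% of all probe sets, and in scion leaves alone for 23. The 25S rRNA control was at -0.29, -1.78 and 1.40 in scion leaves, against -0.13, -0.02 and 1.34 in rootstock leaves. It was thus lowest in replicate 2 in the scion and in replicate 1 in the rootstock. GAPDH and actin 3′ minus 5′ differences were lowest in replicate 3 of both leaf groups, and that of ubiquitin in replicate 1. In replicate 2 the 5S ribosomal RNA was lowest in scion leaves but highest in rootstock leaves. The 9 annotated nuclear genes for plastid ribosomal proteins had their lowest median in replicate 2, at -0.77 (scion) and -0.67 (rootstock). The median difference of the members became 0.27 when scion leaf replicate 2 was left out and -0.09 when scion leaf replicate 1 was, with no call in either. The 5 floral organ identity genes, named by tables of the study and thus chosen on these samples, had positive differences between scion and rootstock leaves. Of them 3 rose, where 0.0264% of all probe sets were called higher. Their direction is no independent evidence, and their part in the values of the members was not tested.

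The difference between the scion effects in buds and leaves was tested as an interaction. It was positive for 23 of 26 genes (49% of all probe sets) with a median of 0.69, and none passed the limma test, which called 0% of all probe sets. At an unadjusted p of at most 0.05 there were 7 members, against 7.74% of all probe sets. The largest values were 1.89 ± 0.52 for cemA, 1.81 ± 0.41 for ycf4 and 1.53 ± 0.43 for rpl20 (SE; adjusted p = 0.338, 0.234 and 0.343). A scion effect confined to buds is therefore not shown for any single gene.

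Relative to the array as a whole, though not to plastid photosynthesis genes, many of these transcripts were lower in flower buds than in leaves, and more of them passed the test in the rootstock. In the scion 6 of 26 genes fell in buds (accD, cemA, rpl20, rpoB, rps14 and ycf4), where 7.91% of all probe sets were called lower, and none rose, against 10.5%. The median difference was -0.72 (all probe sets -0.06). In the rootstock 15 genes fell, where 12% of all probe sets were called lower, and none rose, against 13.7%, with a median of -1.35 (all probe sets -0.05). Only rpl22 in the scion (45% of all probe sets) and rps3 and rpl32 in the rootstock (46.1%) had a positive difference. All bud arrays lay below all leaf arrays for 12 members in the scion (22% of all probe sets) and for 15 in the rootstock (27.8%), and for no member above them (24.3% and 27.8%). The 6 genes of the scion were among the 15, joined by ccsA, clpP, matK, rpl36, rpoC1, rpoC2, rps2, rps15 and ycf3. For these 9 genes the step from 1 stem part to the other is the interaction above, in which no gene was called. The photosynthesis and NDH genes had medians of -1.23 in the scion and -2.33 in the rootstock, with 27 and 36 of 43 called lower. Outside the plastid genome, the 5 annotated nuclear photosynthesis genes had -0.90 and -1.12, with 2 and 4 called lower. For the 5 annotated nuclear Clp subunits the medians were -0.64 and -0.68, with 2 called lower in each. The 18 mitochondrial probe sets had -0.28 and -0.35, with 17 negative in each and 0 and 1 called lower. The 9 nuclear genes for plastid ribosomal proteins had -0.50 and -0.09, and none was called. At an unadjusted p of at most 0.05 there were 13 members in the scion (43.4% of all probe sets) and 19 in the rootstock (50.1%).

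The deepest fall in the scion was that of rps14, which lies next to psaB in the plastid genome, with -1.01, -1.26 and -0.95 in scion flower buds, against 1.36, 0.95 and 1.29 in scion leaves. It fell by 2.27 ± 0.16 in the scion and fell by 2.97 ± 0.16 in the rootstock (SE; adjusted p = 5.15e-06 and 5.27e-07), where buds had -1.39, -1.40 and -1.23. Bud and leaf arrays were far apart for this gene in both stem parts, and rootstock replicate 3 was near its group. The genes ycf4 and cemA lie side by side between psaI and petA, which encode parts of photosystem I and of the cytochrome b6f complex. In flower buds ycf4 fell by 1.91 ± 0.29 in the scion and fell by 3.72 ± 0.29 in the rootstock (SE; adjusted p = 0.000792 and 7.45e-06). For cemA the values were -1.50 ± 0.37 in the scion and -3.39 ± 0.37 in the rootstock (SE; adjusted p = 0.0106 and 5.37e-05). No bud array reached any leaf array in either gene.

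Next came accD, at -0.44, -0.70 and -0.67 in scion flower buds, against 1.40, 0.56 and 0.91 in scion leaves. Its rootstock values were -2.36, -2.04 and -0.97 in flower buds, against 0.44, 1.17 and 1.01 in leaves. It fell by 1.56 ± 0.35 in the scion and fell by 2.66 ± 0.35 in the rootstock (SE; adjusted p = 0.00633 and 0.000162). Among the polymerase genes rpoB passed the test in both stem parts with values of -1.48 ± 0.25 in the scion and -1.54 ± 0.25 in the rootstock (SE; adjusted p = 0.0014 and 0.00063). In contrast rpoC1 and rpoC2 passed the test in the rootstock only, with -1.98 ± 0.27 and -1.88 ± 0.36, and had -0.93 and -0.84 in the scion. The alpha subunit gene rpoA was not called in either, with -0.37 in the scion and -0.17 ± 0.20 in the rootstock.

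**Figure D4:**
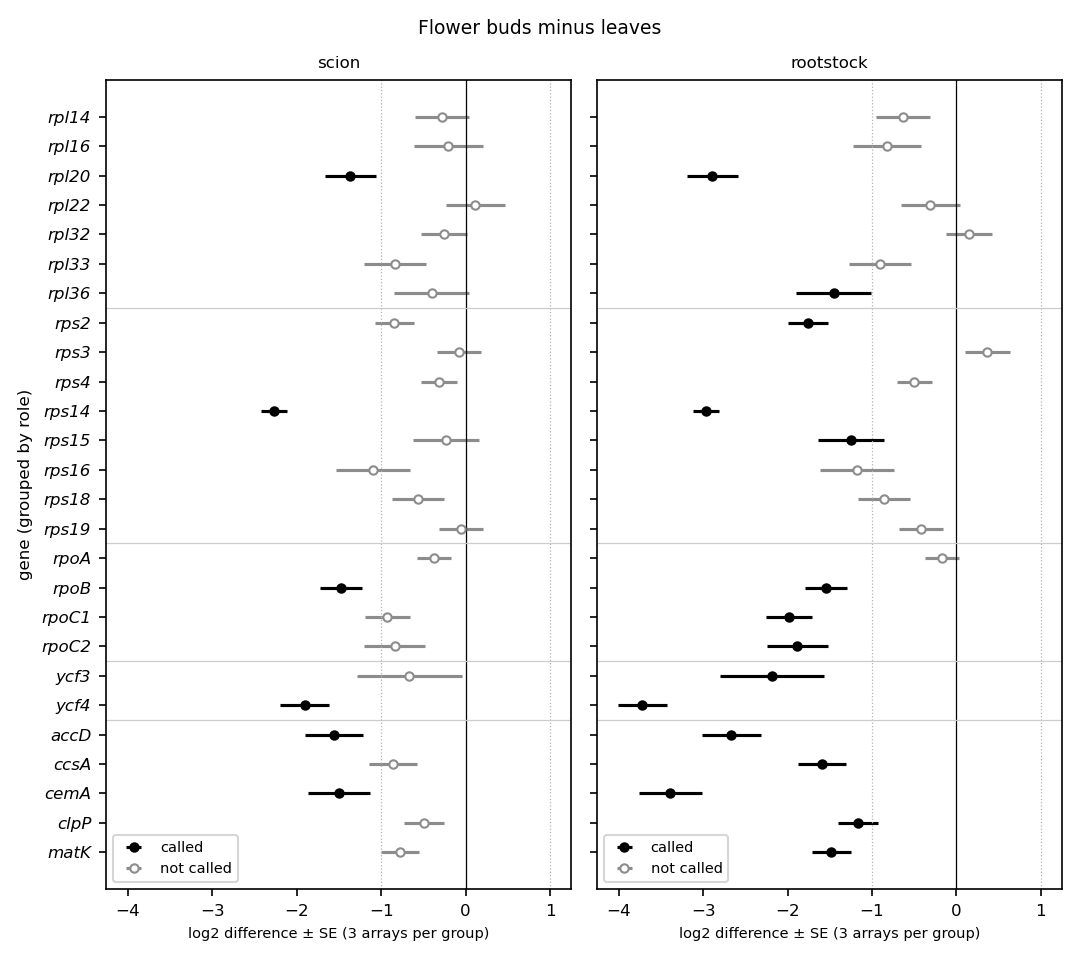
Flower bud minus leaf log2 difference of each gene with its SE (horizontal bars) in the scion (left) and the rootstock (right), 3 arrays per group, with dotted lines at 2-fold. Filled symbols passed the test at the usual scaling, 6 genes in the scion and 15 in the rootstock, and the ribosomal protein genes rps3, rpl22, rps19 and rpl32 lie between -0.42 and 0.37 in both.

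At the other end were ribosomal protein genes with little difference between the organs. In the scion the highest values were 0.11 ± 0.35 for rpl22, -0.06 ± 0.26 for rps19 and -0.08 ± 0.26 for rps3, and in the rootstock 0.37 ± 0.26 for rps3, 0.15 ± 0.27 for rpl32 and -0.17 ± 0.20 for rpoA (SE), none of them called. The scion buds had rps3 at 0.05, 0.01 and -0.08, against 0.51, -0.16 and -0.14 in scion leaves, and the rootstock buds had -0.10, 0.01 and 0.65, against -0.01, -0.64 and 0.12 in rootstock leaves. For rpl22 the scion values were 0.19, 0.06 and -0.02 in flower buds, against 0.41, -0.80 and 0.28 in leaves. Bud and leaf arrays overlapped in both genes, and leaf arrays spread more than scion bud arrays. The scion values of rps19 were likewise 0.28, 0.20 and -0.05 in flower buds, against 0.72, -0.16 and 0.05 in leaves. These genes are neighbours, since rps19, rpl22, rps3, rpl16 and rpl14 follow each other in the plastid genome, and none of the 5 was called in any comparison with all arrays at equal weight and the usual scaling. Without rootstock flower bud replicate 3, rpl16 fell in rootstock buds, with -1.31, and it also did with array weights, with -1.06. For rpl32, which lies elsewhere between ndhF and ccsA, rootstock flower buds had -0.08, -0.16 and 0.72, against -0.06, -0.02 and 0.13 in rootstock leaves. Rootstock replicate 3 set the sign there, and without it the value was -0.13.

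Relative to plastid photosynthesis genes the sign turned for many members, as it did for most genes of the array. With each array centred on the median of the 43 photosynthesis and NDH genes, 7 members were higher in scion flower buds than in scion leaves (rpl14, rpl16, rpl22, rpl32, rps3, rps15 and rps19), none was lower, and the median was 0.59. Of all probe sets 70.3% were called higher and 1.06% lower on that scale, so the members' share of higher calls was below the background. In the rootstock 13 were higher, 11 of them ribosomal protein genes together with clpP and rpoA, and 2 were lower, ycf4 and cemA, with a median of 0.91, where 88.8% of all probe sets were called higher and 1.07% lower. This scaling moved the median of all probe sets to 1.24 in the scion and to 2.21 in the rootstock. Without rootstock flower bud replicate 3, the usual scaling gave 18 genes that fell in rootstock buds, where 10.4% of all probe sets were called lower, and a median of -1.63.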

How the data were processed

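Gene expression was measured on 12 ATH1 arrays, 1 sample each. The authors made the deposited log2 values with RMA, which the submitters' processing notes also name, in GeneSpring, and each probe set has a median of 0 over the arrays, a step not described in the methods. Of 22810 probe sets, 64 controls were left out and 22746 tested, 13513 of them annotated with 1 gene and 503 with several. Gene order in the plastid came from the RefSeq gene table.

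A single model over all arrays, with 4 group means, was fitted with limma 3.58.1 (R 4.3.3), so that a gene has 1 SE over all simple contrasts. For a call, the p adjusted after Benjamini-Hochberg over all probe sets had to be 0.05 or less and the change 2-fold or more (no fold for the interaction), both from the methods. The fit was tested on simulated data. Tables and figures used Python 3.11.15, pandas 2.3.3 and matplotlib 3.10.9. With 3 arrays per group, their number limits the precision.

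Named in full were, for each role, the genes with the smallest p between scion and rootstock in buds and in leaves, and the 3 highest and 3 lowest organ differences. The values of ycf3, rpoB, rps12 and the single marker genes were added after they had been seen. Members and lists were chosen with earlier results of these data known. Listed nuclear genes without an annotated probe set were not counted, which left no member for the proteins associated with the plastid polymerase or for nuclear acetyl-CoA carboxylase subunits. Mitochondrial genes were matched by symbol.

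The methods do not say whether equal replicate numbers mark the same plants. After removal of group means, leaf arrays of equal number correlated at 0.342, 0.714 and 0.816, and bud arrays at 0.0234, 0.0741 and 0.201. Arrays of unequal number correlated at -0.788 to 0.396 in leaves and at -0.155 to 0.0798 in buds. By this measure leaf numbers may mark pairs, and for bud numbers it cannot tell, since a low correlation does not exclude shared plants. The values given come from the fit without a block, and the block was run as an alternative. Alternatives were the replicate block within each organ or over all arrays, array weights, other centrings, single-gene probe sets only, a robust prior, the compared groups only, the methods' one-way test and leaving out each array.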

Additional observations from a re-analysis of the deposited data

How the results depend on the processing

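The number of arrays, 1 deviating bud array and the scaling limit these results, and calls of members between scion and rootstock buds depended on the fit. In buds the members called higher numbered 0, but 5 with the replicate block within each organ (cemA, rpl20, rpoC1, rps2 and ycf4), 3 with the block over all 12 arrays, 11 with array weights, 1 with the compared groups only and 6 with the methods' one-way test. Leaving out single arrays gave 0 to 5. The weights of rootstock flower bud replicates 1, 2 and 3 were 1.81, 3.9 and 0.681, so the weighted fit gave the deviating array less influence. Bud numbers are not known to pair plants, so the block is no correction there. The block within each organ gave 1 interaction call (ycf4), where 68 of all probe sets were called higher and 43 lower. Array weights gave 4, where 236 were called higher and 231 lower. In leaves no alternative called a member. Calls over all probe sets in buds were 54 higher and 36 lower, against 354 and 112 with the block within each organ, 93 and 38 with the block over all arrays, 479 and 160 with array weights and 421 and 145 with the one-way test. With the compared groups only they were 56 and 38, and with single arrays left out 0 to 219 and 0 to 67. In leaves, 6 and 6 became 41 and 67 with the block within each organ, 115 and 111 with array weights and 152 and 145 with the one-way test.

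Between organs, the 6 members that fell in scion buds became 11 with array weights and 6 to 9 without single arrays. Of all probe sets 1800 were called lower there, against 2572 with array weights and 1209 to 2486 without single arrays. The 15 members that fell in rootstock buds became 18 with array weights and 11 to 18 without single arrays. Of all probe sets 2731 were called lower there, against 3166 with array weights and 2360 to 3062 without single arrays. Centring on photosynthesis and NDH genes gave 7 higher and 0 lower in the scion, where 70.3% of all probe sets were called higher and 1.06% lower. In the rootstock it gave 13 higher and 2 lower, where 88.8% were called higher and 1.07% lower. That centring turned the median of the members to 0.59 in the scion and 0.91 in the rootstock, also for genes far from 0. Among the genes described in full, those below changed sign. In the scion, rpl22 was -0.24 with array weights and -0.27 to 0.34 without single arrays (lowest without scion leaf replicate 2). There rps3 was 1.23 and rps19 1.25 after centring on photosynthesis genes, and 0.14 and 0.20 without scion leaf replicate 1; over all arrays left out they ran from -0.19 to 0.14 and from -0.24 to 0.20, and rps19 was 0.04 without scion flower bud replicate 3. In the rootstock, rpl32 was -0.011 with array weights and -0.13 to 0.30 without single arrays (lowest without rootstock flower bud replicate 3), and rpoA was 2.09 after centring on photosynthesis genes. The block within each organ could not be fitted for differences between organs. The cause of these changes was not tested.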
